A study of Mus musculus with 2 samples.

Results

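Nos2-expressing activated macrophages were taken as all lung cells that held at least 1 unique molecular identifier (UMI) of Nos2, the gene of inducible nitric oxide synthase, in 1 droplet-based 3′ single-cell RNA library. There were 135 such cells among 4570. Of these, 126 came from the 2674 cells of the Tgfbr2-KO pool and 9 from the 1896 cells of the control pool. They were set against the cells of the same pool that had no Nos2 UMI but at least 15 UMIs summed over the interferon-induced genes Ly6a, Ly6i, Gbp2 and Iigp1. This comparison group, called Nos2- interferon-high below, held 566 cells in the Tgfbr2-KO pool and 2 in the control pool. Nos2 and these 4 interferon genes chose the cells, so their values are descriptions. All other genes were read in the same cells, so differences between Nos2+ and Nos2- cells are also given without a test.

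The donor bone marrow was LyzM-Cre Tgfbr2 fl/fl, which lacks the type II receptor of transforming growth factor β (TGF-β) in myeloid cells, or Tgfbr2 fl/fl without the Cre. LyzM-Cre acts in monocytes, macrophages and neutrophils alike. Both kinds of marrow were given to irradiated IM-DTR hosts, a strain made for removing lung interstitial macrophages with diphtheria toxin, and every chimera received 50 ng of the toxin 10 days before the lungs were taken. Sorted cells carried CD11b and CD64 and lacked Ly6G, Siglec-F and the host mark CD45.1, so neutrophils, alveolar macrophages and host cells were gated out. Each genotype was a pool of 5 mice, and the ages of the mice are not given in the sources used here. There is therefore no replicate, no p-value was computed, and the intervals are exact 95% intervals of counting error that leave out differences between mice.

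In mouse macrophages, Nos2 is switched on by interferon-γ together with microbial or cytokine signals that act through NF-kB. The enzyme makes nitric oxide from arginine, which the cationic amino acid transporter Slc7a2 brings in, with a cofactor whose synthesis starts with Gch1. Ass1 and Asl rebuild arginine from citrulline, and arginase (Arg1) competes for the same substrate. Nitric oxide blocks mitochondrial respiration, and macrophages that make it are known for glycolysis, itaconate synthesis by Acod1 and export of inflammatory cytokines.

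The pool of each cell was read from a hashtag oligonucleotide on an antibody, which is what separates the genotypes within the library.
TotalSeq-B0303 (Tgfbr2-KO): cttgccgcatgtcat
TotalSeq-B0301 (control): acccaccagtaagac
The assignment probability of the 126 Tgfbr2-KO members was at least 0.993. Tgfbr2 itself stood at 195 UMIs per 1000000 gene UMIs (UPM) in the Tgfbr2-KO pool and at 215 UPM in the control pool. The labels do not say which part of the gene the Cre deletes, and reads of a 3′ library come from the end of the transcript, so this level does not check the deletion.

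Nos2+ cells made up 4.71% (3.94 to 5.58) of the Tgfbr2-KO pool and 0.475% (0.217 to 0.899) of the control pool. The pools differed in depth, with a median of 10277.5 UMIs per cell in the Tgfbr2-KO pool and 7785 in the control pool. After each cell was thinned to 5000 UMIs, Nos2 was seen in 84 of 2419 Tgfbr2-KO cells (3.47%) and in 5 of 1604 control cells (0.312%), with 255 and 292 shallower cells left out of the Tgfbr2-KO and control pools. The number of Nos2 UMIs set the pools apart more plainly than the share did. The Tgfbr2-KO members held 1235 Nos2 UMIs, with a median of 4 and a maximum of 57 per cell, while each of the 9 control members held exactly 1. With at least 2 Nos2 UMIs required, 98 Tgfbr2-KO cells (3.66%) and 0 of 1896 control cells were left, and a count of 0 allows a control share of up to 0.158%, taking 3 cells of the total as its limit.

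Free RNA in the droplets bears on the cells with 1 UMI. Barcodes with 10 to 100 UMIs outside the called cells held 74 Nos2 UMIs among 1520417, or 48.7 UPM. From the genes most depleted in each pool, free RNA made up at most 4.47% of the UMIs in Tgfbr2-KO cells and at most 2.32% in control cells. At those limits it could have given 66.9 of the 1235 Nos2 UMIs in the Tgfbr2-KO pool and 18.4 in the control pool, where 9 were observed. The control count thus lies within what free RNA could give. Among cells without any UMI of the 4 interferon genes, Nos2 was seen in 4 of 1140 Tgfbr2-KO cells (0.351%, median depth 7725 UMIs) and in 6 of 1606 control cells (0.374%, median depth 7521.5 UMIs), close to each other and to the whole control pool.

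Within the Tgfbr2-KO pool, Nos2+ cells became more frequent with each step of the interferon-gene sum. Both counts are raw, and deeper cells can hold more UMIs of both. Median depth was 7725 UMIs at a sum of 0 and 14589 UMIs in Nos2- interferon-high cells. The part of depth in these steps was not tested. They made up 0.942% of cells with a sum of 1 to 4, 2.44% at 5 to 14, 6.47% at 15 to 24, 9.35% at 25 to 49, 26.5% at 50 to 99 and 42.5% (17 of 40 cells; 27.0 to 59.1) at 100 and over. The control pool held 3 cells with a sum of 15 and over, against 675 in the Tgfbr2-KO pool, so the upper steps cannot be compared between genotypes.

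**Figure D1:**
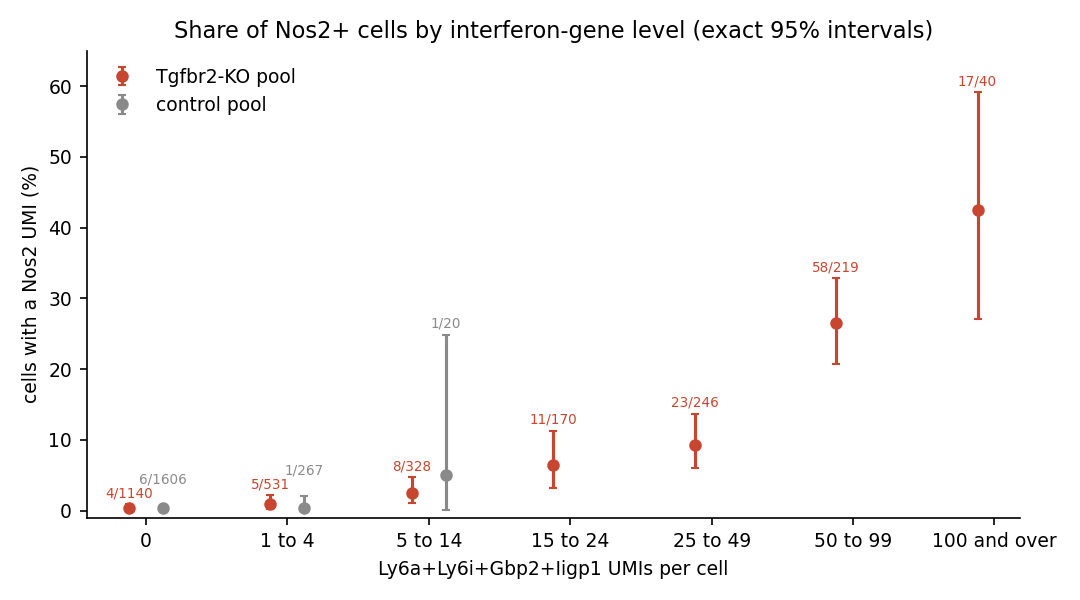
Percent of cells with a Nos2 UMI (y axis) by the summed UMIs of Ly6a, Ly6i, Gbp2 and Iigp1 per cell (x axis), with exact 95% Clopper-Pearson intervals, for the Tgfbr2-KO pool (red) and the control pool (grey). Numbers are Nos2+ cells of all cells in a step, and steps with fewer than 10 cells are not drawn. The share reaches 42.5% in the top step of the Tgfbr2-KO pool. Counts are raw and not adjusted for depth.

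The members were not one uniform group. Of the 126, 28 cells had 1 Nos2 UMI, 31 had 2 to 3, 33 had 4 to 9 and 34 had 10 or more, and the last set held 75.5% of all their Nos2 UMIs. The interferon-gene sum was at least 15 in 109 members and lower in 17. The members were deeper than the comparison cells, with a median of 17085 UMIs against 14589 in Nos2- interferon-high cells, and had a higher median interferon-gene sum, 56.5 against 36. Ratios with both groups at a higher interferon-gene sum are given beside the results they change.

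**Figure D2:**
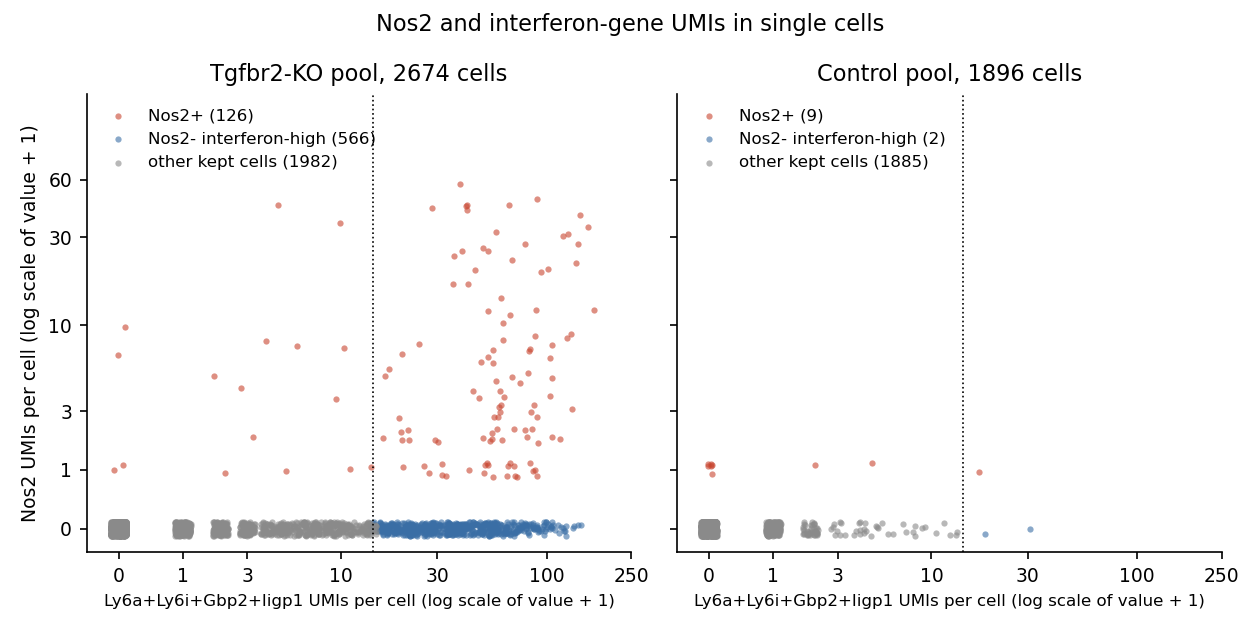
Nos2 UMIs (y axis) against the summed UMIs of Ly6a, Ly6i, Gbp2 and Iigp1 (x axis) per cell, both on a log scale of the value plus 1 with a small random offset, for the Tgfbr2-KO pool (left) and the control pool (right). Red points are Nos2+ cells, blue points Nos2- interferon-high cells and grey points all others, and the dotted line marks the threshold of 15. Cells with many Nos2 UMIs lie in the Tgfbr2-KO pool, most of them right of the line, and all 9 control Nos2+ cells lie at 1 UMI.

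The label of a macrophage was checked on cells thinned to 5000 UMIs. At least 2 UMIs of the complement C1q genes, which mark interstitial macrophages, were found in 97 of 122 Nos2+ cells (79.5%), in 414 of 563 Nos2- interferon-high cells (73.5%) and in 89.9% of the other Tgfbr2-KO cells. Of the other cell types the gate could let through, T and NK markers summed to 14.6 UPM in Nos2+ cells and 21.3 UPM in Nos2- interferon-high cells, with Cd3d, Gzmb, Ncr1 and Cd8a at 0 in the members. B and plasma cell markers summed to 46.4 and 118 UPM in these groups, and alveolar macrophage markers to 39.1 and 88.5 UPM, with Ms4a1, Jchain, Mzb1, Marco and Fabp1 at 0 in the members. Dendritic cell markers summed to 484 and 502 UPM, and platelet and red cell markers to 1.82 and 1.79 UPM, in these groups. Structural markers summed to 134 UPM in Nos2+ cells and 88.7 UPM in Nos2- interferon-high cells, and neutrophil markers to 427 UPM in Nos2+ cells and 214 UPM in Nos2- interferon-high cells, with Ly6g and Ngp at 0 in both. Their part in the results was not tested. Genes of dissociation stress were close, with 1 of 13 counted genes called higher, against 9.66% of all counted genes, and a median log2 ratio of 0.08.

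Genes were compared on UMIs summed over the cells of a group. Genes entered with 100 or more UMIs over both groups and 100 UPM or more in one of them (counted genes), and a ratio of 1.5-fold was the line for a call. Of 1739 counted genes other than Nos2, 168 were called higher in Nos2+ than in Nos2- interferon-high cells (9.66%) and 54 lower (3.11%). The median log2 ratio of all counted genes was -0.00, and the list medians below are read against this centre. Counts of called genes in the lists are read against the 9.66% called higher and 3.11% called lower over all counted genes.

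The RNA of single genes of arginine import, cofactor synthesis and itaconate synthesis was higher in the members. The processes themselves were not measured. Of 5 counted genes in the nitric oxide and arginine list, 3 were called higher (Slc7a2, Gch1 and Acod1) and none lower, with a median log2 ratio of 0.79. Slc7a2, the arginine transporter, stood at 152 UPM in Nos2+ cells and 8.06 UPM in Nos2- interferon-high cells, 18.9-fold higher (14.6 to 24.7). It was concentrated, with UMIs in 32 of 126 Nos2+ cells and 25 of 566 Nos2- interferon-high cells, and 1 cell held 32.0% of the members' UMIs. Without the top cell its log2 ratio was 4.02, against 4.24 with it. In the control pool as a whole Slc7a2 stood at 43.3 UPM, against 17.3 UPM in the whole Tgfbr2-KO pool. It was seen in 5.79% of the 1606 control cells without interferon-gene UMIs. Acod1, which makes itaconate, was spread more evenly: it was seen in 108 of 126 Nos2+ cells and 289 of 566 Nos2- interferon-high cells, at 607 UPM in Nos2+ cells and 174.9 UPM in Nos2- interferon-high cells, 3.47-fold higher (3.22 to 3.74). Gch1, the first enzyme of tetrahydrobiopterin synthesis, was 1.73-fold higher, a call that did not hold when both groups had an interferon-gene sum of at least 50 (log2 ratio 0.56). Odc1, which makes putrescine from ornithine, was within the threshold at a log2 ratio of 0.35, and the recycling enzymes were closer too. Ass1, which joins citrulline to aspartate, stood at 355 UPM in Nos2+ cells and 249.97 UPM in Nos2- interferon-high cells (1.42-fold, 1.31 to 1.54), and Asl at 37.8 UPM in Nos2+ cells and 37.7 UPM in Nos2- interferon-high cells. Arg1 had 0 UMIs in the members, which allows a share of cells with a UMI of up to 2.38% (3 cells of 126), and 1 UMI in the comparison cells.

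Saa3, Upp1 and Cfb, the other marker genes given for these cells, differed in how widely they were seen. They were chosen as markers with these data known. Saa3, an acute phase protein of the serum amyloid A family, stood at 471 UPM in Nos2+ cells and 37.9 UPM in Nos2- interferon-high cells, 12.4-fold higher (11.0 to 14.1). Its UMIs came from 27 of 126 Nos2+ cells (21.4%) and 41 of 566 Nos2- interferon-high cells (7.24%), and from 0.249% of the 1606 control cells without interferon-gene UMIs. In cells thinned to 5000 UMIs the shares were 16.4% of Nos2+ cells and 4.80% of Nos2- interferon-high cells. Only 5 cells held 74.6% of the members' Saa3 UMIs, so the high level describes a few cells. Of all Saa3 UMIs in the Tgfbr2-KO pool, 72.8% lay in the members, which made up 4.71% of its cells and 7.15% of its UMIs.

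Upp1, uridine phosphorylase of pyrimidine salvage, stood at 135 UPM in Nos2+ cells and 52.4 UPM in Nos2- interferon-high cells, 2.57-fold higher (2.22 to 2.98). It was seen in 62 of 126 Nos2+ cells and 117 of 566 Nos2- interferon-high cells, and in 0.374% of the control cells without interferon-gene UMIs. The other counted genes of nucleotide salvage, the purine phosphorylase Pnp (log2 ratio 0.24) and the nucleotide hydrolase Samhd1 (0.04), were within the threshold. Cfb, complement factor B of the alternative pathway, was the most widely seen of the markers, in 98 of 126 Nos2+ cells and 364 of 566 Nos2- interferon-high cells. It stood at 288 UPM in Nos2+ cells and 139 UPM in Nos2- interferon-high cells, 2.07-fold higher (1.88 to 2.29). Among 7 counted genes of the acute phase and complement list, 3 were called higher and none lower. The third was Slpi, an inhibitor of leukocyte proteases, at 144 UPM in Nos2+ cells and 32.9 UPM in Nos2- interferon-high cells, with 63.6% of the members' UMIs in 5 cells. Complement C3 was 1.44-fold higher (1.36 to 1.52), and the receptors C5ar1 and C3ar1 had log2 ratios of -0.27 and -0.33, all within the threshold.

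Promoter windows were searched because C/EBP and interferon-response motifs are textbook elements of macrophage activation genes. The search covered 19 windows of 15 genes among the markers and the 15 highest ratios. The promoter source held no window for Nos2, Cfb and Slc7a2, so these were not searched. Those of Saa3, Inhba and Slc7a11 are shown, as examples with matches, chosen after the matches were seen. They run from 250 bases before to 50 bases after the start given by RefSeq (GRCm38.p6), and capitals mark motif matches on either strand.
Saa3, chr7:46715627-46715926, minus strand: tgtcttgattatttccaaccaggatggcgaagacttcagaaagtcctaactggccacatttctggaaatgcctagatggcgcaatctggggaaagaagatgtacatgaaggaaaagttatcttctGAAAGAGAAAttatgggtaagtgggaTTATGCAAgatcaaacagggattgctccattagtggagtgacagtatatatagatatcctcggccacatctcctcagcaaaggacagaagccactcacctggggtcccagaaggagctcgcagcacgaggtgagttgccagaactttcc
Inhba, chr13:16011601-16011900, plus strand: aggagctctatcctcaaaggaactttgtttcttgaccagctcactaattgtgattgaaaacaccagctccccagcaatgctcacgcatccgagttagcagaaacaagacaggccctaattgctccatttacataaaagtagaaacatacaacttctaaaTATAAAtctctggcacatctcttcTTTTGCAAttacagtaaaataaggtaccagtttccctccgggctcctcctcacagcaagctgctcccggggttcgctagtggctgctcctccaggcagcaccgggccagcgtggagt
Slc7a11, chr3:50443564-50443863, minus strand: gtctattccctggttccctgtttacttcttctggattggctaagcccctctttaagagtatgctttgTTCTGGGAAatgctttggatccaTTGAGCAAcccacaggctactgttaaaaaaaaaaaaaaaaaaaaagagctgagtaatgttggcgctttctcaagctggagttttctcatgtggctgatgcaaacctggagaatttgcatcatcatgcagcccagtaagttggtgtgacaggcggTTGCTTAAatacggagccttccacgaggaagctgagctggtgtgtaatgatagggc
The Saa3 window holds an ISRE core and a C/EBP match (TTGCNNAA), the Inhba window a TATA box (TATAAA) and a C/EBP match, and the Slc7a11 window a GAS match (TTCNNNGAA) and C/EBP matches at 2 places. The matches do not overlap. Of 32851 promoter windows of the same length, 3.44% hold the ISRE core, 10.8% the C/EBP motif, 8.30% the GAS motif and 13.6% the TATA box. The motifs kB (0.411%) and HRE (ACGTG, 19.6%) were also searched and are not in these 3 windows. Over all 19 windows, a C/EBP match was found in 7, of Saa3, S100a9, Inhba, Mmp12, Procr, Slc7a11 and Slpi, and HRE in 3, of Upp1, F10 and Slpi. The TATA box was found in 5, of S100a9, S100a8, Inhba, Mmp12 and Il1a. The ISRE core and GAS were found only in the windows shown, and kB in none. Another 7 windows held none of the motifs, among them every window of Gpnmb, Gm15056, Rgcc and Acsl1.

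Of 18 counted cytokines and chemokines, 9 were called higher and 3 lower, with a median log2 ratio of 0.50. Over all counted genes 9.66% were called higher and 3.11% lower. Inhba, the activin A subunit and a ligand of the TGF-β superfamily, stood at 832 UPM in Nos2+ cells and 109 UPM in Nos2- interferon-high cells, 7.64-fold higher (7.07 to 8.27), in 66 of 126 Nos2+ cells and 116 of 566 Nos2- interferon-high cells. Il1a, a cytokine of the interleukin-1 family, was 4.82-fold higher (4.33 to 5.37), at 337 UPM in Nos2+ cells and 69.8 UPM in Nos2- interferon-high cells. In the control pool as a whole Il1a stood at 497 UPM. Il6 and Ccl5, a chemokine for T cells and monocytes, were each 3.09-fold higher, and Ccl5 stood at 2596 UPM in Nos2+ cells and 839.9 UPM in Nos2- interferon-high cells. The 3 lower genes were Ccl2, Ccl7 and Ccl8, chemokines for monocytes, with ratios of 0.62, 0.60 and 0.53. With both groups at an interferon-gene sum of at least 50, or both within the cluster that held most members, none of these 3 kept its call, and Ccl7 changed sign (log2 ratios 0.30 and 0.40).

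Among the 15 highest ratios were those of Procr, F10, Mmp12 and Gpnmb. Procr, the endothelial protein C receptor, was seen in 113 of 126 Nos2+ cells (89.7%) and 275 of 566 Nos2- interferon-high cells (48.6%). After thinning the shares were 71.3% of Nos2+ cells and 30.02% of Nos2- interferon-high cells. It stood at 730 UPM in Nos2+ cells and 154 UPM in Nos2- interferon-high cells, 4.73-fold higher (4.40 to 5.08), one of the most evenly spread differences. F10, coagulation factor X, was 5.95-fold higher (5.23 to 6.77), at 265 UPM in Nos2+ cells and 44.5 UPM in Nos2- interferon-high cells. Mmp12, the macrophage elastase, and Gpnmb, a glycoprotein of lipid-loaded macrophages, were 7.06-fold and 5.65-fold higher, but 5 cells held 81.9% and 71.4% of the members' UMIs of these genes in that order. With both groups at an interferon-gene sum of at least 50, Mmp12 was within the threshold (log2 ratio 0.42). Clec4e, the Mincle receptor for mycobacterial lipids, was 3.49-fold higher (3.25 to 3.75).

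**Figure D3:**
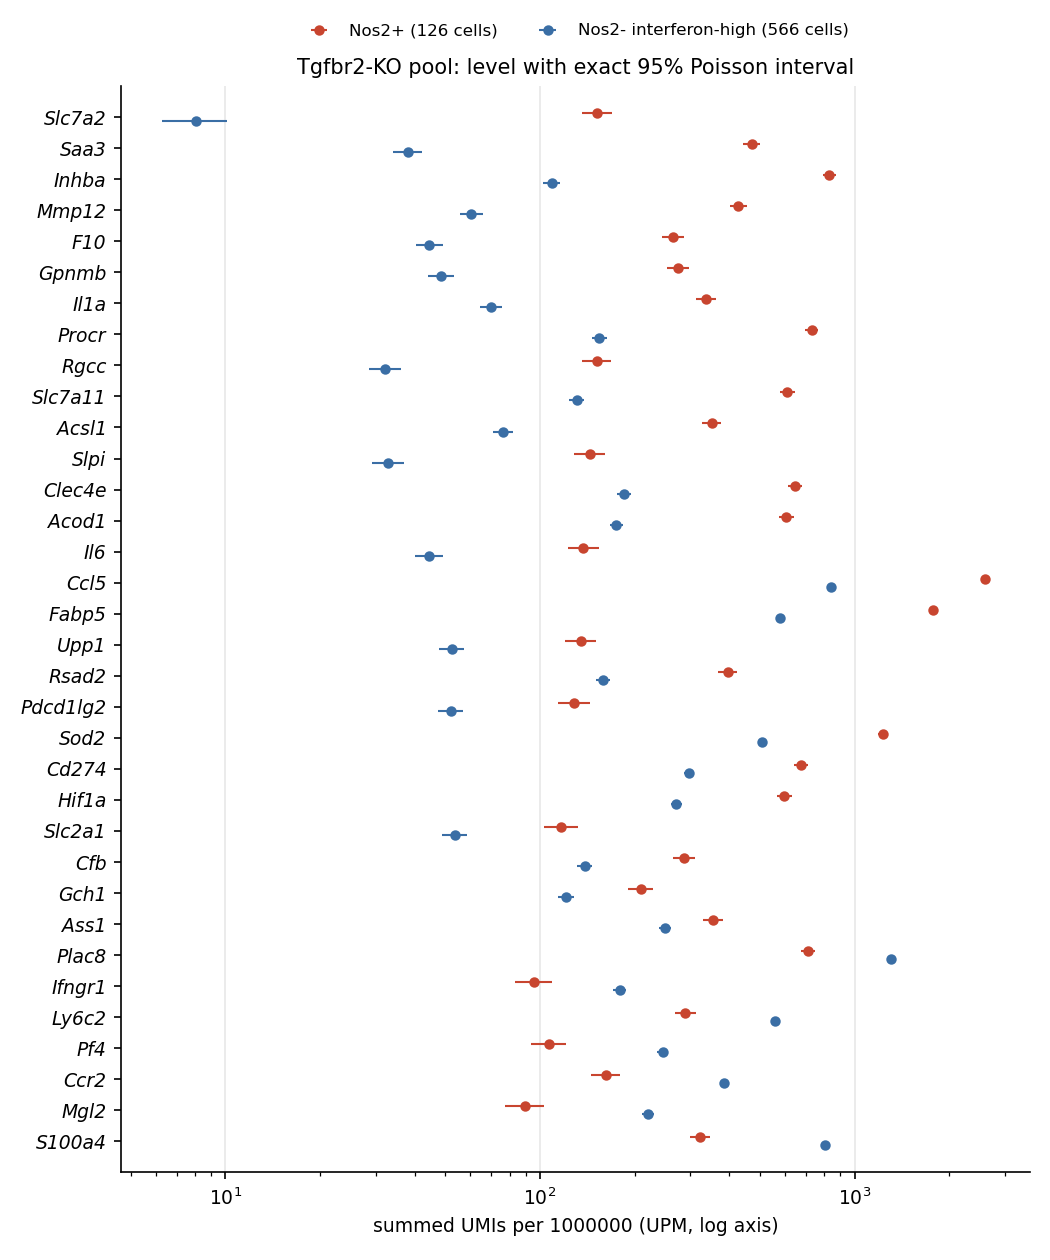
Level of selected named genes in the Tgfbr2-KO pool, in summed UMIs per 1000000 (UPM, log axis), for 126 Nos2+ cells (red, upper point) and 566 Nos2- interferon-high cells (blue, lower point), with exact 95% Poisson intervals of counting error. S100a9 and S100a8, with ratios of 108 and 37.6 and most of the members' UMIs in 1 cell, are not drawn. Of the genes drawn the gap is widest for Slc7a2 (152 and 8.06 UPM) and reverses at Plac8 and the genes under it, which end with S100a4 (323 and 803 UPM).

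Genes of glycolysis were called in 1 direction. Of 18 counted genes of glycolysis and the hypoxia response, 11 were called higher and none lower, with a median log2 ratio of 0.79 against -0.00 over all counted genes. Hif1a, the oxygen-regulated subunit of hypoxia-inducible factor, stood at 598 UPM in Nos2+ cells and 271 UPM in Nos2- interferon-high cells, 2.21-fold higher (2.06 to 2.36). The glucose transporter Slc2a1 was 2.18-fold higher (1.87 to 2.54) and Mif, a cytokine and hypoxia target, 2.09-fold (1.96 to 2.24). The lowest log2 ratios of the list, all above 0, belonged to Higd1a (0.27), Gpi1 (0.36) and Eno1 (0.40).

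Lipid handling and antioxidant genes, where called, were higher too. Of 10 counted lipid genes, 6 were called higher and none lower (median log2 ratio 0.97), among them Fabp5, a fatty acid carrier, at 1778 UPM in Nos2+ cells and 579 UPM in Nos2- interferon-high cells. The log2 ratio of Fabp5 was 1.62, and 1.04 with both groups within the cluster that held most members. Acsl1, which activates fatty acids, was 4.60-fold higher (4.15 to 5.11) and was seen in 102 of 126 Nos2+ cells and 276 of 566 Nos2- interferon-high cells. Of 13 counted oxidative genes, 6 were called higher and none lower. Slc7a11, the cystine importer for glutathione synthesis, stood at 611 UPM in Nos2+ cells and 131 UPM in Nos2- interferon-high cells, 4.67-fold higher (4.32 to 5.06). The peroxiredoxin Prdx1 was 1.93-fold higher, a call lost with both groups at an interferon-gene sum of at least 50 (log2 ratio 0.41). The glutathione enzyme Gclc was 1.67-fold higher, a call lost with the mean over cells (log2 ratio 0.55). Rac2, a GTPase that activates the phagocyte oxidase, had a ratio of 0.90, within the threshold.

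Interferon genes were higher in part. Of 21 counted interferon-γ targets, 7 were called higher and 1 lower, with a median log2 ratio of 0.48. The list holds the 4 genes of the rule, which the comparison cells were chosen to express. The count and the median include them, so both are partly set by the rule. Gbp2, among the 7 called higher, was 1.52-fold higher (a call lost in 6 of 14 alternatives) and Ly6i 1.46-fold. Iigp1 was within the threshold, and Ly6a stood at 1030.2 UPM in Nos2+ cells and 1177 UPM in Nos2- interferon-high cells. Beyond these, the guanylate-binding proteins Gbp5 and Gbp4 were 1.96-fold and 1.85-fold higher. Of 7 counted antiviral genes of type I interferon, 3 were called higher, led by Rsad2 (viperin), 2.48-fold (2.28 to 2.70), while Irf7 had a log2 ratio of -0.35. The receptor subunit Ifngr1, which binds interferon-γ, was lower, at 95.6 UPM in Nos2+ cells and 179 UPM in Nos2- interferon-high cells (ratio 0.53, 0.46 to 0.62).

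Antigen presentation differed little, and checkpoint ligands more. None of 13 counted class I genes was called, with a median log2 ratio of 0.14. The class II list had a median of -0.27, with its master regulator Ciita called lower (ratio 0.66), a call lost in 6 of 14 alternatives, and 1 gene called higher, H2-M2, which belongs by descent to the nonclassical class I genes. Cd74, the invariant chain, stood at 18703 UPM in Nos2+ cells and 22569 UPM in Nos2- interferon-high cells. Of 9 counted genes of costimulation and checkpoints, 4 were called higher and 1 lower. The PD-1 ligands Pdcd1lg2 (PD-L2) and Cd274 (PD-L1) were 2.47-fold (2.12 to 2.87) and 2.27-fold (2.13 to 2.42) higher, and Cd274 was seen in 118 of 126 Nos2+ cells. The checkpoint Vsir (VISTA) was lower, with a ratio of 0.62, and Cd86 was nearly equal, at 915 UPM in Nos2+ cells and 922 UPM in Nos2- interferon-high cells. Among NF-kB genes, 3 of 15 were called higher, namely the mitochondrial superoxide dismutase Sod2 (2.43-fold), Tnfaip2 (2.28-fold) and the adhesion molecule Icam1 (1.57-fold, a call lost in 4 of 14 alternatives).

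**Figure D4:**
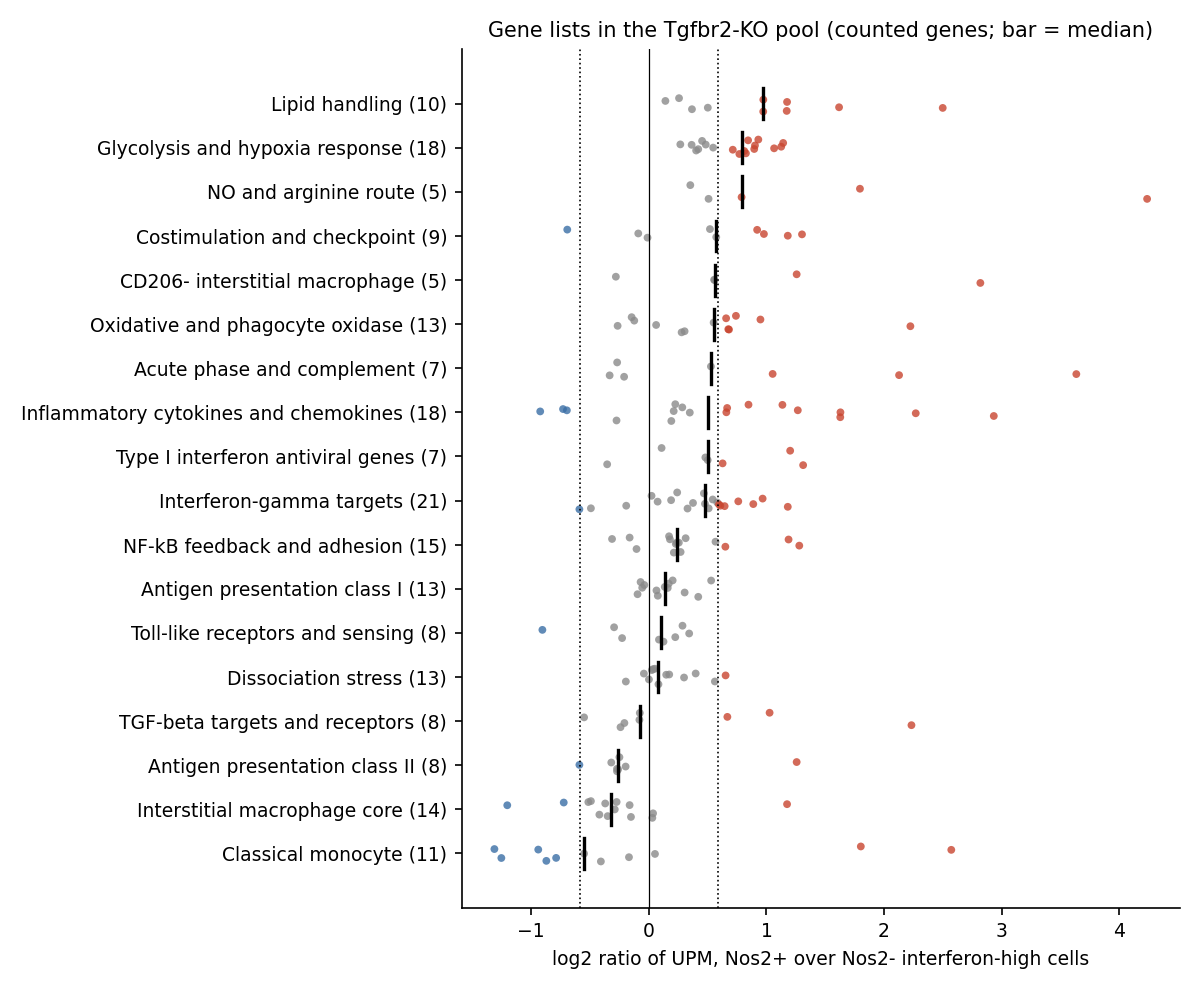
Log2 ratio of UPM, Nos2+ over Nos2- interferon-high cells of the Tgfbr2-KO pool (x axis), for each counted gene of the lists with at least 5 counted genes (y axis, number of counted genes in brackets). Red points are called higher, blue points lower, grey points neither, black bars are medians and dotted lines mark 1.5-fold. Lipid handling and glycolysis have medians of 0.97 and 0.79, and the classical monocyte list is lowest at -0.55.

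Classical monocyte genes were called in both directions. Of 11 counted, 5 were called lower (Ly6c2, Ccr2, Plac8, S100a4 and Ms4a4c), 2 higher (F10 and Clec4e, described above) and 4 neither, with a median log2 ratio of -0.55. Ccr2, the receptor by which monocytes leave the bone marrow, stood at 162 UPM in Nos2+ cells and 385 UPM in Nos2- interferon-high cells (ratio 0.42, 0.38 to 0.47). Ly6c2, the mark of classical monocytes, had a ratio of 0.52 (0.48 to 0.57) and S100a4 of 0.40 (0.37 to 0.43). The calls of Ly6c2 and Plac8 did not hold when both groups came from the cluster of most members, with a log2 ratio for Ly6c2 of -0.34, and Ccr2 stayed called there at -1.12. The groups also differed in a cluster led by S100a9, S100a8, Ly6c2, Hp and Plac8. It held 10.8% of the Nos2- interferon-high cells and 0.794% of the Nos2+ cells. Its part in these ratios was not tested.

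Macrophage genes were mostly within the threshold. Of 14 counted genes of the interstitial macrophage core, 2 were called lower, Pf4 (ratio 0.43) and Apoe (0.61), and 1 higher, the lysosomal tetraspanin Cd63 (2.26-fold). With both groups at an interferon-gene sum of at least 50, Apoe lost its call and Pf4 changed sign (log2 ratio 0.22). The lectins Mgl2 and Mrc1 (CD206), linked to alternative activation, had ratios of 0.41 and 0.66, and Mrc1 changed sign at that interferon level (log2 ratio 0.35). Mgl2 was called lower under all 14 alternatives. Of 4 counted genes of alternative activation, 2 were called lower (Mgl2 and Mrc1) and 1 higher (Pdcd1lg2). Of the patrolling monocyte list, none of 3 counted genes was called, of the CD206+ list 1 of 2 was lower (Mrc1), and of the CD206- list 2 of 5 were higher (Mmp12 and H2-M2). Among 8 counted genes of Toll-like receptors and sensing, only Ifngr1 was called, and it was lower. Of 8 counted genes of TGF-β signalling, 3 were called higher (Rgcc, Bhlhe40 and Ldlrad4) and none lower, with a median log2 ratio of -0.08. Rgcc, a cell cycle regulator, stood at 152 UPM in Nos2+ cells and 32.2 UPM in Nos2- interferon-high cells. It was higher still in the control pool as a whole, at 172 UPM.

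Several sizes depended on the interferon level of the cells compared. With 75 Nos2+ and 184 Nos2- cells at an interferon-gene sum of at least 50, where the median sums were 71 in Nos2+ and 67 in Nos2- cells, the log2 ratio of Slc7a2 was 3.60 against 4.24 in the full comparison, that of Inhba 2.09 against 2.93 and that of Rsad2 0.64 against 1.31. Gpnmb stood at 0.84 there against 2.50, Slpi at 2.78 against 2.13, and C5ar1 at 0.78 against -0.27. With both groups taken from cluster 4 (103 Nos2+ and 382 Nos2- interferon-high cells), Mmp12 and Gpnmb had log2 ratios of 0.74 and 0.94. At an interferon-gene sum of at least 50, Saa3 stood at 3.26 and Procr at 1.75, both called higher.

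The members were also split by their number of Nos2 UMIs. In the order 0 (Nos2- interferon-high), 1, 2 to 3, 4 to 9 and 10 or more Nos2 UMIs, Inhba stood at 109, 299.7, 487, 1114 and 1265 UPM, and Hif1a at 271, 333, 472, 579 and 919.8 UPM. Acod1 followed the same order, at 174.9, 414, 518, 589.6 and 842 UPM. Slc7a2 was flat at the low steps and high at the top ones, at 8.06, 8.32, 15.5, 89.8 and 429 UPM. Saa3 stood at 37.9, 87.4, 143, 188 and 1287 UPM, and even at the top step 41.2% of the cells held a Saa3 UMI. Upp1 was not higher at 1 Nos2 UMI (33.3 UPM, 19.03 to 54.1) than in Nos2- interferon-high cells (52.4 UPM) and stood at 106, 160 and 212 UPM at the steps above. Cfb stood at 139, 219, 186, 268 and 442 UPM. Ifngr1 ran the other way, at 179, 131, 101, 109 and 52.2 UPM, and Ccr2 stood at 385, 239, 131, 188 and 103 UPM. Of the 168 genes called higher, 62 rose at every step from 1 Nos2 UMI up, against 141 of all 1739 counted genes; the 168 include cells of these same steps, so the overlap is partly built in.

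**Figure D5:**
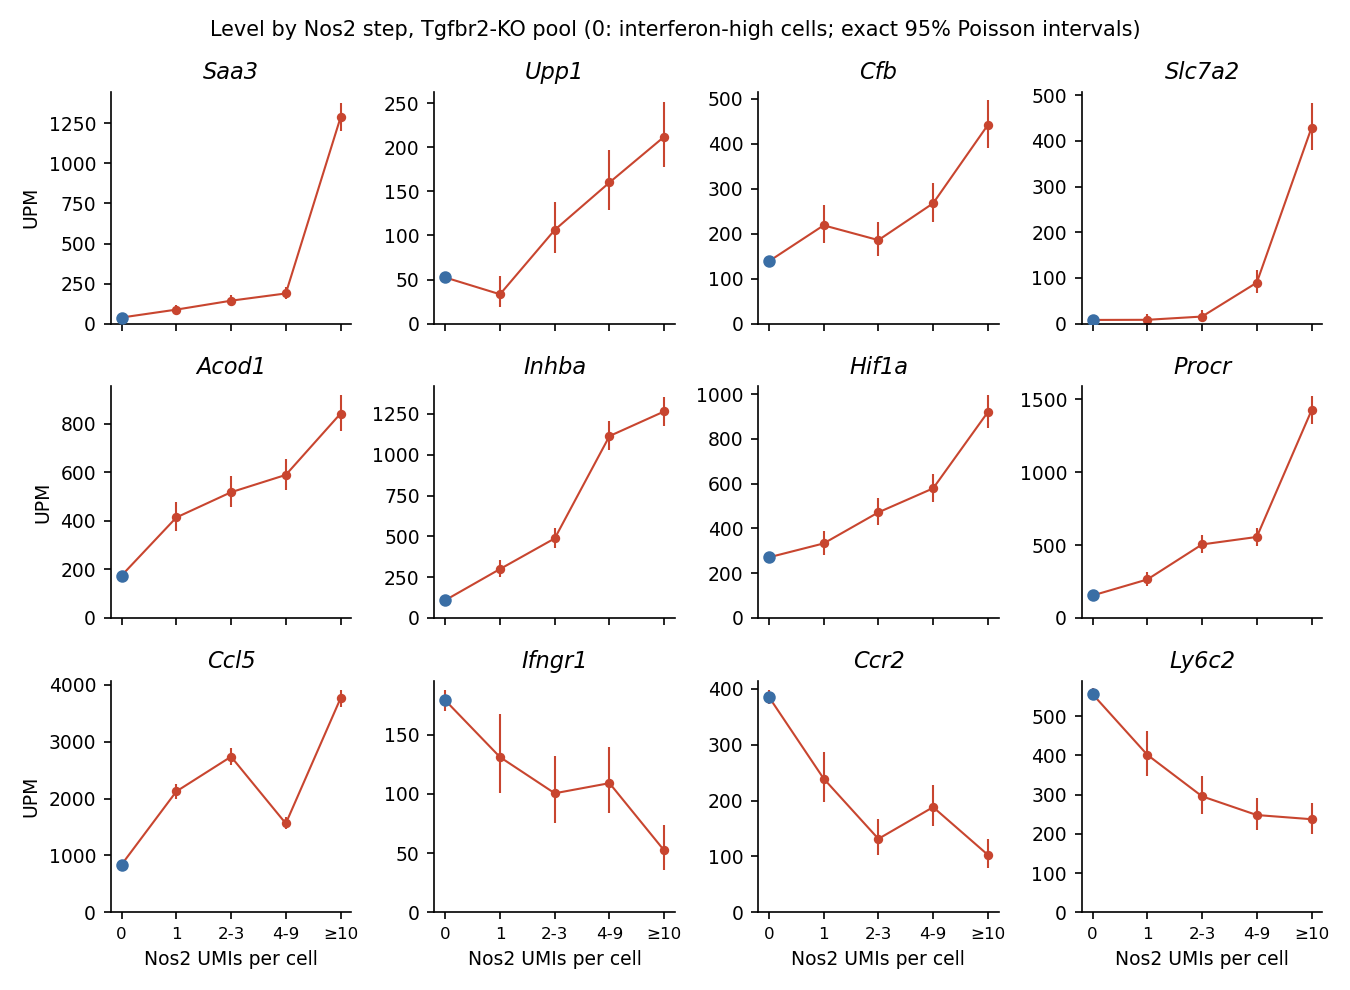
Summed UMIs per 1000000 (UPM, y axis, from 0) of 12 genes by Nos2 UMIs per cell (x axis) in the Tgfbr2-KO pool, with exact 95% Poisson intervals. The blue point at 0 is the Nos2- interferon-high group and the red points are Nos2+ cells with 1, 2 to 3, 4 to 9 and 10 or more Nos2 UMIs (28, 31, 33 and 34 cells). Inhba, Hif1a and Acod1 increase at every step, Slc7a2 mainly at the upper ones, and Ifngr1 is lowest at 10 or more.

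When all cells were clustered by their genes, 103 of the 126 members (81.7%) fell in cluster 4, led by Gm15056, Ly6i, Ccl5, Cxcl9 and Saa3, and 14 (11.1%) in cluster 14, led by Gpnmb, Atp6v0d2, Inhba and Fabp5. Of the Nos2- interferon-high cells, 67.5% were in cluster 4 and 1.41% in cluster 14. Another 61 of these 566 cells (10.8%) were in cluster 5, led by S100a9, S100a8, Ly6c2, Hp and Plac8. That cluster held 1 of the 126 members (0.794%). Cluster 14 held 62 Tgfbr2-KO cells, of which 22.6% were Nos2+, and cluster 4 held 672, of which 15.3% were. Clustering without Nos2 and the 4 interferon genes placed 105 and 12 members in the matching clusters. Clusters 4, 5 and 14 stay without a cell type name.

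The members of cluster 14 differed from those of cluster 4. Their median interferon-gene sum was 9.5 in cluster 14 and 62 in cluster 4. Gpnmb stood at 2045 UPM in the cluster 14 members and 36.1 UPM in the cluster 4 members, Mmp12 at 3153 and 55.9 UPM, Inhba at 2692 and 629.8 UPM, and Fabp5 at 7597 and 1065 UPM in the same order. Upp1 and Slc7a2 went the other way, at 11.4 and 30.5 UPM in cluster 14 members and 165 and 184 UPM in cluster 4 members. So did the other markers. Saa3 stood at 145 UPM in cluster 14 members (2 of 14 cells) and 563 UPM in cluster 4 members (25 of 103 cells). Cfb stood at 110 UPM (6 of 14 cells) and 331 UPM (88 of 103 cells) in the same order. Cluster 14 held 537 of the 602 Gpnmb UMIs and 828 of the 939 Mmp12 UMIs of all members. Against all Nos2- Tgfbr2-KO cells of cluster 4, Gpnmb stood at 36.1 UPM in Nos2+ and 29.1 UPM in Nos2- cells, and Mmp12 at 55.9 UPM in Nos2+ and 60.4 UPM in Nos2- cells.

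Nos2+ cells were then set against all Nos2- Tgfbr2-KO cells of their own cluster, which were not matched for interferon level. The median interferon-gene sum was 62 in Nos2+ and 27 in Nos2- cells of cluster 4. In cluster 14 it was 9.5 in Nos2+ and 1 in Nos2- cells. In cluster 4, 173 of 1729 counted genes were called higher (10%) and 72 lower (4.16%). In cluster 14, with 14 Nos2+ and 48 Nos2- cells, 186 of 1742 were called higher (10.7%) and 147 lower (8.44%). The cells of the clusters are separate, though they come from the same mice and library. Of the genes called higher in cluster 4, 116 were counted in cluster 14, where 53 were called higher and 6 lower, with a median log2 ratio of 0.53 against -0.02 for all genes counted in both. Rsad2 was 6.12-fold higher in Nos2+ cells of cluster 14 (4.89 to 7.69) and 2.91-fold in those of cluster 4 (2.63 to 3.23). Ccl5 was 4.34-fold higher (3.59 to 5.24) in cluster 14 and 3.19-fold (3.08 to 3.31) in cluster 4. Fabp5, most of whose member UMIs lay in cluster 14 (1995 of 3908), was 1.11-fold higher in cluster 14 (1.06 to 1.17) and 1.76-fold in cluster 4 (1.67 to 1.86). Acsl1 was 4.77-fold higher in cluster 14 and 5.29-fold in cluster 4, Slc7a11 2.19-fold and 3.35-fold, and Cd274 2.25-fold and 2.41-fold. Slc7a2 was 22.2-fold higher in cluster 4 (17.2 to 29.1). In cluster 14 Slc7a2 had too few UMIs to be counted, with a ratio of 0.60 (0.24 to 1.26). Il1a differed in direction, with ratios of 0.53 (0.44 to 0.64) in cluster 14 and 4.44 (3.97 to 4.97) in cluster 4, and so did Il6, with 0.59 (0.44 to 0.78) and 3.04 (2.57 to 3.58). In cluster 14, Il6 was seen in 4 of 14 Nos2+ and 27 of 48 Nos2- cells. Il1a was seen there in 11 of 14 Nos2+ and 44 of 48 Nos2- cells. The intervals leave out differences between cells. The class II gene H2-Ab1 stood at 4398 UPM in Nos2+ and 2104 UPM in Nos2- cells of cluster 14, and at 10427 UPM in Nos2+ and 10986 UPM in Nos2- cells of cluster 4. In cluster 14 Cd74 was 1.73-fold higher (1.65 to 1.81), while H2-DMa, which helps load class II molecules, was within the threshold (1.25-fold, 0.94 to 1.65).

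The Nos2+ cells of both pools are shown side by side only as values, since the 9 control cells held 90353 UMIs in all and lie within the free RNA level of Nos2. Saa3, Upp1, Cfb, Inhba, Acod1, Ass1 and Slc7a2 all had 0 UMIs in the 9 control cells. Such a 0 in 9 cells does not show absence from control cells. Of the 1606 control cells without interferon-gene UMIs, 5.79% held Slc7a2, 4.92% Ass1, 3.74% Acod1 and 2.12% Inhba. For Cfb, Upp1 and Saa3 the shares were 0.560%, 0.374% and 0.249%. Apoe stood at 1821 UPM in the Tgfbr2-KO members and 12318 UPM in the control members, and Mrc1 at 198 UPM in the Tgfbr2-KO members and 863 UPM in the control members. Of the 9 control cells, 8 held C1q UMIs, and the other had none and 432 UMIs of Ccl21a, a chemokine of lymphatic and stromal cells. In interferon-gene sum, 6 of the 9 were at 0.

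The threshold of 1 Nos2 UMI cuts through a range. Cells with 1 Nos2 UMI had 219 UPM of Cfb and 5371 UPM of Cxcl9, a chemokine induced by interferon-γ, and cells with 2 had 175 and 4558 UPM. All Tgfbr2-KO cells with 0 Nos2 UMIs had 56.4 UPM of Cfb and 1299 UPM of Cxcl9. At the interferon threshold, Nos2- cells with a sum of 15 to 19 had 2228 UPM of Cxcl9 and those with 10 to 14, just outside, had 1207 UPM.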

How the data were processed

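One 3′ single-cell RNA library and its hashtag library came from the same cells, and all 4887 called barcodes of the hashtag table were found in the matrix. Cell Ranger 8.0 and Seurat 5.1.0 with the build GRCm38 are listed in the submitters' processing notes, without the role of Seurat, and the header of the matrix states Cell Ranger 8.0.0. The deposited matrix holds raw UMI counts of 22597 features in 1172636 barcodes. The other table lists, per the file headers, each cell's assignment and the fraction of posterior probability behind it. The deposited hashtag columns are log10 values, equal to the log10 of the matrix count plus 1 within 8.9e-16.

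Of 2738 cells assigned to B0303 (Tgfbr2-KO) and 1933 to B0301 (control), those with at least 1000 UMIs, 500 genes and at most 10% mitochondrial UMIs were used, and 101 were removed. Doublets were handled by leaving out 96 hashtag multiplets, and doublets within a pool cannot be seen this way; 66 unassigned and 54 blank cells were left out too. The Tgfbr2-KO pool held 30729204 UMIs and the control pool 16298452. Levels are UMIs summed over a group of cells per 1000000 (UPM), with exact 95% intervals: Poisson for a level, conditional binomial for a ratio, Clopper-Pearson for a percentage above 0. A count of 0 is given the limit of 3 counts of the total. Only counting error is covered, and these treat UMIs and cells as independent. A count under 3 was set to 3 in a ratio. Levels were compared without a test, as there is 1 pool per genotype.

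Clustering used 2000 variable genes, 30 components, 15 neighbours and Leiden clusters (resolution 0.8, scanpy 1.11.5), with both pools together and no integration. Alternatives were other Nos2 and interferon thresholds, thinning to 5000 UMIs, other scaling (TMM of edgeR 4.0.16), other gene and cell filters and means over cells. Named genes are Nos2, Saa3, Upp1 and Cfb, the 15 highest and 15 lowest counted ratios, every counted gene of the nitric oxide, acute phase and salvage lists, the 3 highest and 3 lowest of each other list, and the 10 highest and 10 lowest between pools. Asl, Arg1, Cxcl9, Mki67 and Ms4a4c were named after their values were seen. A few genes are not reported here. The members and the 30 lists were chosen with earlier results of these data known. Promoters are from RefSeq (GRCm38.p6).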

Additional observations from a re-analysis of the deposited data

Results flagged for a closer look

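Nos2 was also seen outside the cells compared. Of 64 Tgfbr2-KO cells that the cell filter removed, 5 (7.81%, 2.59 to 17.3) held Nos2, with 54 UMIs among them at a median depth of 1261 UMIs for the 64 cells. None of the 37 removed control cells held Nos2, and a count of 0 in 37 cells allows a share of up to 8.11%, taking 3 cells of the total as its limit.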

How the results depend on the processing

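No paired analysis was possible because each genotype is 1 pool. The share of Nos2+ cells in the Tgfbr2-KO pool was 3.47% in cells thinned to 5000 UMIs and 3.66% with at least 2 Nos2 UMIs, where the control share was 0%. Genes called lower numbered 88 with at least 2 Nos2 UMIs and 126 with at least 4. With genes counted from 20 UMIs and 20 UPM, 436 were called higher and 269 lower. Mrc1 (log2 ratio 0.35), Ccl7 (0.30), Psd3 (0.52) and Pf4 (0.22) changed sign with both groups at an interferon-gene sum of at least 50, as did Ccl7 (0.40) within cluster 4. The settings of at least 4 Nos2 UMIs, a sum of at least 50, cluster 4 and the top cell were chosen after seeing the data. Leaving out each gene's top cell gave 138 genes higher and 72 lower. The median of the neutrophil list, 5.23, rests on 1 cell: it was -1.23 with at least 2 Nos2 UMIs, -1.43 with at least 4, -0.62 with members at an interferon sum of at least 15, -1.25 with both groups at 50 or more, -0.93 after thinning, -0.70 within cluster 4 and -0.64 without each gene's top cell. Of the named genes, 36 of 45 called higher and 10 of 24 called lower were called under all 14 alternatives. TMM scaling gave 163 genes higher and 57 lower. Differences between mice cannot be seen at any depth here.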

Other observations

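Single cells held most UMIs of some genes. One member with 2772 UMIs, 1 Nos2 UMI and no interferon-gene UMI held 283 of the 333 S100a8 UMIs and 239 of the 240 S100a9 UMIs of all 126 Tgfbr2-KO members, and the neutrophil gene Ly6g had 0 UMIs in the members. Another held 558 of the 605 UMIs of Retnla, a secreted protein of alternative activation, which was seen in 9 of 126 Nos2+ cells and 60 of 566 Nos2- interferon-high cells.

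Proliferation genes were seen in some members. Mki67, a mark of cycling cells, had UMIs in 37 of 126 Nos2+ cells (29.4%) and 91 of 566 Nos2- interferon-high cells (16.1%), and after thinning to 5000 UMIs in 14.8% of Nos2+ cells and 7.46% of Nos2- interferon-high cells. The counted cell cycle genes Pcna, Tubb5 and Hmgb2 had log2 ratios of 0.08, -0.17 and -0.48, all within the threshold. The whole cell cycle list went the other way from Mki67, at 891 UPM in Nos2+ cells and 1105 UPM in Nos2- interferon-high cells. So did cluster 12, whose leading genes include Top2a and Mki67. It held 2 of 126 Nos2+ cells (1.59%) and 29 of 566 Nos2- interferon-high cells (5.12%).

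Among the 96 barcodes called hashtag multiplets, 3 held Nos2, with 57 UMIs among them.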
